A study of Mus musculus with 3 samples.

Results

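The platelet-derived growth factor (PDGF) genes described here are the receptors Pdgfra and Pdgfrb, the receptor-like gene Pdgfrl and the ligands Pdgfa, Pdgfb, Pdgfc and Pdgfd. These 7 genes, out of 32285 in the count matrices, were taken by symbol, and each was present in every library. Their transcripts were counted in 3 single-cell RNA libraries made from the synovium and fat pad of mouse knees, in which fibroblasts, endothelium, mural cells (pericytes and smooth muscle of vessels) and macrophages were told apart by gates on other genes. Fibroblasts had at least 0.2% of their UMIs (unique molecular identifiers, each counting 1 captured transcript) in Col1a2, Col3a1 and Dcn and no UMI of Ptprc, Cdh5 or Notch3. Endothelium had at least 1 UMI of Cdh5 and none of Ptprc. Mural cells had at least 1 UMI of Notch3, at least 2 of Higd1b and Myh11 together and none of Ptprc or Cdh5, and macrophages had at least 3 UMIs of C1qa. None of the 7 genes was used to gate.

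All mice carried the genotype given as wt, and tissue of 5 to 10 mice was pooled for each library. Control mice were 2 months old at harvest. The 1-week and 2-month groups had destabilisation of the medial meniscus (DMM), a knee operation that leads to osteoarthritis, at 2 months of age and were harvested 1 week or 2 months afterwards, so the 2-month group was also older than the control. In every group the tissue was digested with trypsin and then with type I collagenase, and live cells of the second digest were sorted before capture by 10x Genomics 3′ v3 chemistry. Neither sex nor any sham surgery is given in the sources used here. Each group was 1 library, so no difference between groups could be tested. All intervals are 95% intervals for counting error and do not cover the spread between mice.

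PDGF ligands are dimers that bring 2 receptor tyrosine kinases together at the cell surface. The A and C chains bind the alpha receptor, the B chain binds both receptors, and the D chain binds mainly the beta receptor. The C and D chains are secreted with an inhibitory CUB domain that proteases remove. In blood vessels, PDGF-B made by endothelial cells recruits pericytes that carry the beta receptor, and Pdgfra is a general marker of fibroblasts in connective tissue.

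Promoter windows, 250 bases before to 50 bases after the start, were taken from RefSeq (GRCm38.p6) for 4 members. Pdgfb and Pdgfrl had no window by symbol, and Pdgfrb was left out before the search. Windows are shown for Pdgfra and Pdgfd, which had lower fibroblast levels at 1 week, for Pdgfc, which had a higher level, and for Pdgfa, whose level differed least. The windows are chr5:75152001-75152300 (plus), chr9:6168236-6168535 (plus), chr3:81036166-81036465 (plus) and, of 2 windows for Pdgfa, chr5:138994895-138995194 (minus), each written 5′ to 3′ with motif matches in capitals.
Pdgfra promoter: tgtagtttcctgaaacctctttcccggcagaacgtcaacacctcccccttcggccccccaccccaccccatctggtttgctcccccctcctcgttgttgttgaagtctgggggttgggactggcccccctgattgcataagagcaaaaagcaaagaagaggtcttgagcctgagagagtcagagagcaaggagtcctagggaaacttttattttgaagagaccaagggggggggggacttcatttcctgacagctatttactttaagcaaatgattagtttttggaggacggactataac
Pdgfd promoter: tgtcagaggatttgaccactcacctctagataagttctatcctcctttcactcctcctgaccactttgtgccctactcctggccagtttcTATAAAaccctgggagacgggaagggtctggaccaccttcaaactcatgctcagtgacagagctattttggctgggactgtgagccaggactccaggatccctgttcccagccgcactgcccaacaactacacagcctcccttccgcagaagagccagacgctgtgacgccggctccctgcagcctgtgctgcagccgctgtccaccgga
Pdgfc promoter: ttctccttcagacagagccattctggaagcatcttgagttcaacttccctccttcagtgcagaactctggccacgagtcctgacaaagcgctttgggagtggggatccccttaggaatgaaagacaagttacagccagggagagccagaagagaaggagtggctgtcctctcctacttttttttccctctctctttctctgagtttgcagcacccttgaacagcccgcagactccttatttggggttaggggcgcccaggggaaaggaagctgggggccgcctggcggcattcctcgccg
Pdgfa promoter: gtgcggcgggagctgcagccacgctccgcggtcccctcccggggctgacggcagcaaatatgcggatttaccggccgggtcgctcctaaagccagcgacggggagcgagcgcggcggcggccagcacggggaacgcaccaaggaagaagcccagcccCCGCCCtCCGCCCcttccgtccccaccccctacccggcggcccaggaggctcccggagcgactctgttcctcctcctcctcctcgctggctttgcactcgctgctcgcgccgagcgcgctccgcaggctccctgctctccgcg
5 motifs were searched on both strands. They were the TATA box TATAAA, the CCAAT box CCAAT, the GC box GGGCGG, the AP-1 site TGANTCA and the EGR site GCGNGGGCG, which occurred in 13.6%, 37.4%, 35.7%, 7.81% and 5.55% of all 32851 windows. The Pdgfd window held 1 TATAAA, with its first base at -160 from the start. The Pdgfa window shown held 2 GC boxes, read on the strand opposite to the one written. The Pdgfra and Pdgfc windows held none of the 5. The Pdgfa window shown was 73.3% G and C with 37 CG pairs. The other Pdgfa window, not shown, was 67% G and C with 24 CG pairs and held 1 GC box on the gene's strand. Pdgfra had 51% with 5 pairs, Pdgfc 55% with 8 and Pdgfd 56.7% with 8. The median window was 52.7% G and C. A match is a description of these letters and shows no bound factor.

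Of 9003, 13986 and 10799 barcodes in the control, 1-week and 2-month libraries, 8099, 12316 and 9782 passed a filter that asked for 500 or more detected genes and a mitochondrial share of no more than 10%. The fibroblast gate held 4057, 5350 and 5526 cells, the endothelial gate 1270, 1784 and 1157, the mural gate 735, 601 and 463, and the macrophage gate 1101, 1969 and 894. Median depth was between 8321 and 15578 UMIs per cell over the 12 combinations of class and library. Levels are given as CPM, the UMIs of a gene per 1000000 UMIs summed over the cells of a class, and a gene was compared across classes and libraries but not with another gene. Summed over a list, markers not used in the gates were highest in their own class, where all 5 endothelial markers summed to 2326, 2738 and 2987 CPM, all 5 mural markers to 1215, 6914 and 3420 CPM, and all 5 macrophage markers to 7124, 5688 and 6094 CPM. The 5 fibroblast markers summed to 4671, 18493 and 5991 CPM in fibroblasts, but also to 1335, 5543 and 1456 CPM in endothelium, 1007.5, 4454 and 1822 CPM in mural cells and 653, 3124 and 1111 CPM in macrophages, each highest at 1 week. The fibroblast marker Thy1 was higher in mural cells (454 and 211 CPM) than in fibroblasts (60.2 and 80.5 CPM) in the 1-week and 2-month libraries. Neutrophils, which should lack the receptors, give the level counted in cells of another kind, at a lower depth (medians of 2945, 1914 and 5174 UMIs). Of 69, 372 and 781 neutrophils, 1, 27 and 7 also passed the fibroblast gate. The 5 fibroblast markers in neutrophils summed to 1020, 5240 and 2224 CPM, and the part of mixed cells in neutrophil levels was not tested. Of the passing cells, 56, 57 and 55 had a barcode sequence that also occurred in another library.

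Pdgfra, the receptor for the A and C chains (GRCm38 chr5:75152292-75198215, plus strand, protein-coding in GENCODE vM21 like the other members), was at its highest in fibroblasts and was lower there at 1 week. Its fibroblast level was 245 CPM in the control (interval 241 to 249), 153 CPM at 1 week (151 to 156) and 271 CPM at 2 months (268 to 275). The 1-week level was 1.60-fold lower than the control (1.56 to 1.64), and the 2-month level was 1.11-fold higher (1.09 to 1.13). The stricter fibroblast gate gave 311, 155 and 315 CPM, and there the 1-week log2 ratio was -1.01, past 2-fold, in place of -0.68. The 3 fibroblast levels had separate intervals and stood above the other 9. After every cell was thinned to 3000 UMIs, 49.3% of control, 35.9% of 1-week and 53.3% of 2-month fibroblasts had a Pdgfra UMI, and without thinning 80.6%, 79.6% and 88.4% did. In thinned macrophages the share was 5.80%, 3.38% and 6.57%, at median depths of 9617, 10117 and 11750 UMIs against 12541, 15578 and 15178 in fibroblasts. Fibroblasts supplied 79.8%, 75.9% and 82.7% of all Pdgfra UMIs of passing cells, while they held 55.2%, 50.1% and 61.4% of the UMIs of all genes.

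**Figure D1:**
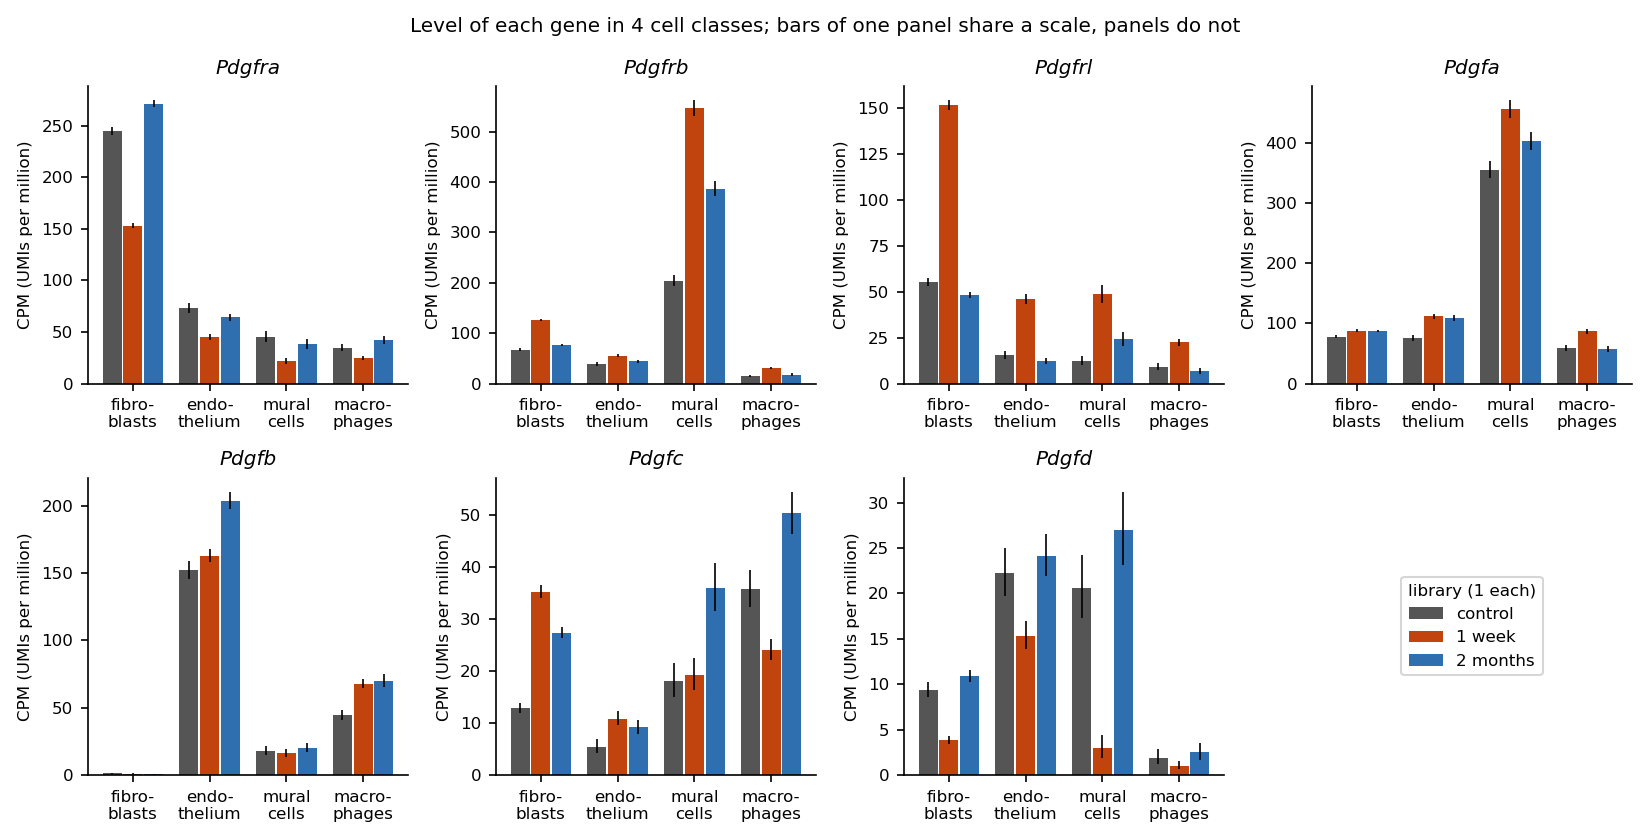
Level of each PDGF gene (CPM, UMIs per 1000000 UMIs of the class) in 4 cell classes of the control, 1-week and 2-month libraries, 1 library each, with 95% intervals for counting error as black lines and a separate scale in each panel. Pdgfra is highest in fibroblasts (245, 153 and 271 CPM), Pdgfrb and Pdgfa in mural cells, Pdgfb in endothelium, and Pdgfrl in fibroblasts at 1 week (152 CPM).

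Outside fibroblasts Pdgfra was lower in each library. Its level was 73.0, 44.9 and 64.0 CPM in endothelium, 45.3, 21.6 and 38.0 CPM in mural cells, 34.7, 24.6 and 42.0 CPM in macrophages and 61.1, 32.5 and 62.0 CPM in neutrophils, in the order control, 1 week, 2 months. If the Col1a2, Col3a1 and Dcn UMIs of a class came with Pdgfra in the ratio seen in fibroblasts, endothelium would hold 65.5, 44.3 and 62.1 CPM and macrophages 33.8, 24.6 and 43.1 CPM. The observed levels were 1.01 to 1.11 times those values in endothelium and 0.975 to 1.03 times in macrophages. In mural cells they were 0.925, 0.570 and 0.572 times the value at that ratio. The part of fibroblast RNA in these levels was not tested. From the 6th to the 10th place in the order of Pdgfra levels, neighbouring intervals overlapped, with mural, endothelial and macrophage levels mixed.

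Within the fibroblast gate, sub-gates on genes other than the PDGF family separated cells of different kinds, and a cell could pass several. The lining sub-gate (Clic5 and Tspan15) had a control Pdgfra level of 133 CPM, and the Pi16 and Dpp4, Myoc and Penk, and Gdf10, Inmt and Fmo2 sub-gates had 278, 302 and 321 CPM. At 1 week the lining level was higher than in the control, 154 CPM or 1.17-fold (1.09 to 1.25). In the other 6 sub-gates that had at least 30 cells in both libraries it was lower, with the largest differences in cells of no sub-gate (178 against 334 CPM, 1.87-fold lower, 1.78 to 1.98) and in Thbs4 and Cilp cells (139 against 245 CPM, 1.76-fold lower, 1.67 to 1.86). Interferon-response cells came closest to no difference, 170 against 191 CPM, with an interval of the ratio from 0.8001 to 0.997. The lowest 1-week level, 96.3 CPM, was in Acta2-high cells, which numbered 451 at 1 week and 23 in the control. The makeup of the gate also differed, since lining cells were 29.7%, 6.71% and 29.8% of fibroblasts and Acan and Col11a1 cells 0.222%, 42.8% and 3.02%. At 2 months Pdgfra was higher than in the control in all 7 sub-gates compared, by 1.03-fold to 1.65-fold, although the interval of the smallest included 1.

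Pdgfrb, the receptor of the B and D chains (chr18:61045150-61085061, plus), was highest in mural cells, where its level was higher in both DMM libraries. Mural Pdgfrb was 204 CPM in the control (194 to 215), 546 CPM at 1 week (530 to 562) and 386 CPM at 2 months (371 to 402), and these 3 levels led the order of all 12 with separate intervals. The ratio to the control was 2.67 at 1 week (2.52 to 2.84) and 1.89 at 2 months (1.77 to 2.02). The thinned share of mural cells with a Pdgfrb UMI was 45.1%, 76.7% and 62.1%, and the unthinned share 77.4%, 97.3% and 90.3%, against 2.55%, 4.68% and 2.42% of thinned macrophages. The mural gate itself changed its makeup, with cells of under 5 Myh11 UMIs, here called pericytes, forming 9.66%, 52.2% and 13.0% of it. Of the 5 mural markers, Rgs5 was 544, 5965 and 2687 CPM, and Kcnj8 and Abcc9 were also higher in both DMM libraries. Des was 455, 447 and 372 CPM and Cspg4 133, 125 and 154 CPM. The 5 fibroblast markers in mural cells were 4454 CPM at 1 week against 1007.5 CPM in the control, and their part in the mural levels was not tested.

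Pdgfrb was higher than in the control in both kinds of mural cell. In smooth muscle cells, with at least 5 Myh11 UMIs, it was 189.6 CPM in the control, 492 CPM at 1 week and 352 CPM at 2 months, ratios of 2.60 (2.42 to 2.79) and 1.85 (1.73 to 1.99). In pericytes, 71, 314 and 60 cells, it was 368, 599 and 703 CPM, ratios of 1.63 (1.42 to 1.88) and 1.91 (1.62 to 2.26). With the sub-gates weighted as in the control library, the log2 ratio of the class at 1 week was 1.29 in place of 1.42. The stricter mural gate gave 201, 523.5 and 373 CPM. Mural Pdgfra was lower at 1 week in both kinds, 38.7 and 26.6 CPM in smooth muscle cells and 118 and 16.7 CPM in pericytes, the latter 7.07-fold lower (4.98 to 10.05). Median depth was 6373 UMIs in control pericytes and 11007 at 1 week. Pdgfra of the whole mural gate was 0.925 and 0.570 times the value at the fibroblast ratio to Col1a2, Col3a1 and Dcn. The part of fibroblast RNA in mural Pdgfra was not tested.

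In fibroblasts Pdgfrb was 67.4 CPM in the control (65.2 to 69.6), 126 CPM at 1 week (124 to 128) and 76.5 CPM at 2 months (74.7 to 78.2). The 1-week level was 1.87-fold the control (1.80 to 1.94) and fell short of the 2-fold call, and the 2-month level was 1.13-fold (1.09 to 1.18). All 7 fibroblast sub-gates had a ratio above 1 at 1 week, from 1.05 in lining cells, whose interval of 0.889 to 1.23 included 1, to 2.11 in interferon-response cells (1.73 to 2.60). Lining cells had the lowest fibroblast Pdgfrb in the control and at 1 week, 27.8 and 29.1 CPM, and had 28.7 CPM at 2 months. Mmp13 cells had the highest 1-week level, 181 CPM. With the control mix of sub-gates the class log2 ratio at 1 week was 0.38 in place of 0.90, and the share of lining cells was the lower of the pair at 1 week.

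**Figure D2:**
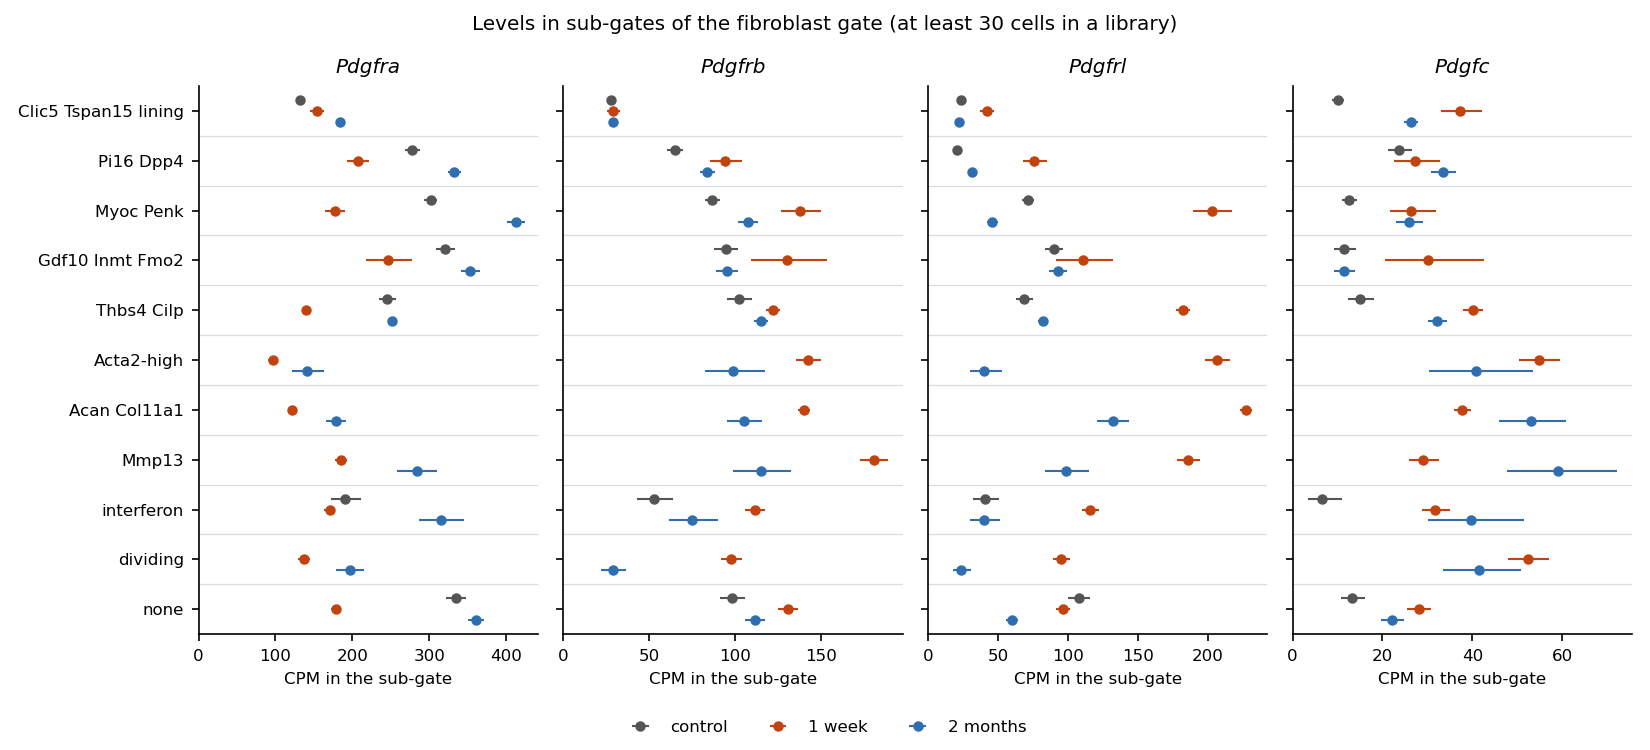
Levels of Pdgfra, Pdgfrb, Pdgfrl and Pdgfc (CPM, horizontal axes) in sub-gates of the fibroblast gate with at least 30 cells in a library, as points with 95% intervals for counting error. At 1 week Pdgfra lies below the control in 6 of 7 sub-gates and Pdgfrb at or above it in 7 of 7, and lining cells keep Pdgfrb between 27.8 and 29.1 CPM in the 3 libraries.

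Cells were also sorted by which of the receptors had a UMI. Of thinned fibroblasts, 39.2% of the control (37.6 to 40.7), 25.3% at 1 week (24.1 to 26.5) and 39.2% at 2 months (37.8 to 40.5) had Pdgfra alone. Pdgfrb alone was seen in 7.95% (7.10 to 8.87), 19.8% (18.7 to 20.9) and 9.44% (8.66 to 10.3). Both were seen in 10.1% (9.17 to 11.1), 10.6% (9.76 to 11.5) and 14.1% (13.2 to 15.1). Without thinning, both were seen in 41.4% (39.9 to 42.9), 59.5% (58.1 to 60.8) and 53.6% (52.2 to 54.9), Pdgfra alone in 39.1%, 20.2% and 34.8% and Pdgfrb alone in 4.81%, 11.9% and 4.45%. At 1 week the share with Pdgfra alone was thus lower and that with Pdgfrb alone higher either way, while the share with both had overlapping intervals in thinned cells and was higher without thinning.

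Pdgfrl, a gene for a secreted protein with similarity to the ligand-binding part of the PDGF receptors and without a kinase domain (chr8:40926212-40990785, plus), was highest in fibroblasts at 1 week. Its fibroblast level was 55.2 CPM in the control (53.2 to 57.2), 152 CPM at 1 week (149 to 154) and 48.2 CPM at 2 months (46.8 to 49.6). The 1-week library was 2.75-fold the control (2.64 to 2.86), and the 2-month library was 1.14-fold lower than the control (1.09 to 1.20). The 2-month direction turned with the weight of cells, since its log2 ratio was -0.20 as counted, 0.09 in thinned cells and 0.04 with every cell weighted equally. Of thinned fibroblasts 12.8%, 32.5% and 13.7% had a UMI, and of all fibroblasts 29.7%, 67.4% and 37.3%, against 1.83%, 3.74% and 1.15% of thinned macrophages. The ratio at 1 week was above 1 in 6 of 7 sub-gates and reached 3.704 in Pi16 and Dpp4 cells (20.5 to 76.0 CPM, interval 3.13 to 4.38). In cells of no sub-gate it was 1.12-fold lower (1.02 to 1.22). Acan and Col11a1 cells had the highest 1-week level, 227 CPM, and chondrocytes, of which 89 of 94 at 1 week lay in the fibroblast gate, had 285 CPM. With the control mix of sub-gates the class log2 ratio was 0.90, under 2-fold, in place of 1.46.

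In endothelium Pdgfrl was 15.4, 46.2 and 12.4 CPM, in mural cells 12.3, 48.6 and 24.2 CPM, and in macrophages 9.07, 22.5 and 6.59 CPM. The 1-week ratios were 2.99 (2.58 to 3.50), 3.95 (3.12 to 5.05) and 2.48 (2.01 to 3.09). At the fibroblast ratio to collagen and decorin the endothelial level would be 14.8, 43.9 and 11.04 CPM and the macrophage level 7.63, 24.4 and 7.66 CPM, close to what was counted. In mural cells it would be 11.1, 37.5 and 11.8 CPM, so the 2-month mural level was 2.05 times that value. Removing cells called doublets by Scrublet took the macrophage log2 ratio at 1 week from 1.31 to 0.53, and the stricter gate took the endothelial one from 1.58 to 2.21.

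Pdgfa, which encodes the A chain (chr5:138976014-138997370, minus), was highest in mural cells in every library. Mural Pdgfa was 356 CPM in the control (342 to 370), 457 CPM at 1 week (442 to 472) and 403 CPM at 2 months (388 to 419). The ratios were 1.28 (1.22 to 1.35) and 1.13 (1.07 to 1.20). Thinned mural cells had a UMI in 61.9%, 71.0% and 64.9%. Pericytes were at 229, 421 and 523 CPM and smooth muscle cells at 368, 494 and 390.2 CPM, so the ratio at 2 months was 2.28 in pericytes (1.86 to 2.81) and 1.06 in smooth muscle cells (1.00 to 1.12).

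Fibroblast Pdgfa was 78.1, 88.2 and 87.9 CPM, ratios of 1.13 at both times. Under the stricter gate it was 53.4, 86.0 and 78.1 CPM (log2 ratios of 0.69 and 0.55), and with the control mix of sub-gates the log2 ratios were 0.0049 at 1 week and -0.08 at 2 months, so its size and, at 2 months, its direction depended on the setting. Lining cells had 124, 107 and 114 CPM, and the Pi16 and Dpp4 and the Myoc and Penk sub-gates lay between 38.9 and 50.6 CPM. In endothelium Pdgfa was 75.7 CPM in the control (71.0 to 80.6), 112 CPM at 1 week (108 to 117) and 109 CPM at 2 months (104 to 114), ratios of 1.48 (1.38 to 1.60) and 1.44 (1.33 to 1.55). Venular cells (Selp and Ackr1) went from 31.4 CPM to 104 and 108 CPM, ratios of 3.32 (2.76 to 4.01) and 3.43 (2.85 to 4.16). Arterial cells (Gja5 and Sema3g) were at 126, 127 and 162 CPM, with a 1-week ratio of 1.01 (0.868 to 1.17). At 1 week the arterial level was thus within counting error of the control. The endothelial levels were 3.62, 4.40 and 5.40 times those at the fibroblast ratio to collagen and decorin. Macrophage Pdgfa was 59.3, 87.0 and 57.3 CPM, 1.47-fold the control at 1 week (1.34 to 1.60), with 6.4, 34.7 and 25.2 CPM in neutrophils. Over the alternative settings the macrophage log2 ratio at 1 week ranged from 0.09 to 0.78. It was higher in 3 of 5 macrophage sub-gates and lower in 2, with ratios from 0.690 to 2.06.

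Pdgfb, which encodes the B chain (chr15:79995874-80014977, minus), was an endothelial and macrophage transcript. Endothelium held 152 CPM in the control (145 to 159), 163 CPM at 1 week (158 to 168) and 204 CPM at 2 months (197 to 211), and the first 2 had overlapping intervals. The 2-month ratio was 1.34 (1.27 to 1.42) and the 1-week ratio 1.07 (1.02 to 1.13), and the latter lay below 1 when cells were thinned or weighted equally. A UMI was present in 31.9%, 31.2% and 39.5% of thinned endothelial cells (unthinned, 52.0%, 59.1% and 67.3%) and in 0.406%, 0.275% and 0.0951% of thinned fibroblasts. Endothelium supplied 70.5%, 60.8% and 74.1% of all Pdgfb UMIs.

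Arterial cells carried the highest Pdgfb of the endothelial sub-gates, 227 CPM in the control, 328 CPM at 1 week and 383 CPM at 2 months. Their ratios to the control were 1.44 (1.30 to 1.60) and 1.68 (1.53 to 1.86). Venular cells were at 79.0, 129 and 142 CPM, ratios of 1.63 (1.45 to 1.85) and 1.79 (1.58 to 2.03), and capillary cells (Rgcc, Gpihbp1 and Cd36) at 165, 213 and 229 CPM. The share of arterial cells was 20.2%, 8.35% and 14.0% of the endothelial gate. Cells that passed the Cdh5 gate but no sub-gate had 94.8, 40.0 and 99.1 CPM of Pdgfb and 216, 126 and 156 CPM of Pdgfra. Their Pdgfra was above that of the whole endothelial gate (73.0, 44.9 and 64.0 CPM), and the part of fibroblast RNA in it was not tested. Under the stricter gate, with at least 3 Cdh5 UMIs and no Notch3 UMI, the class had 198, 208 and 236 CPM of Pdgfb.

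**Figure D3:**
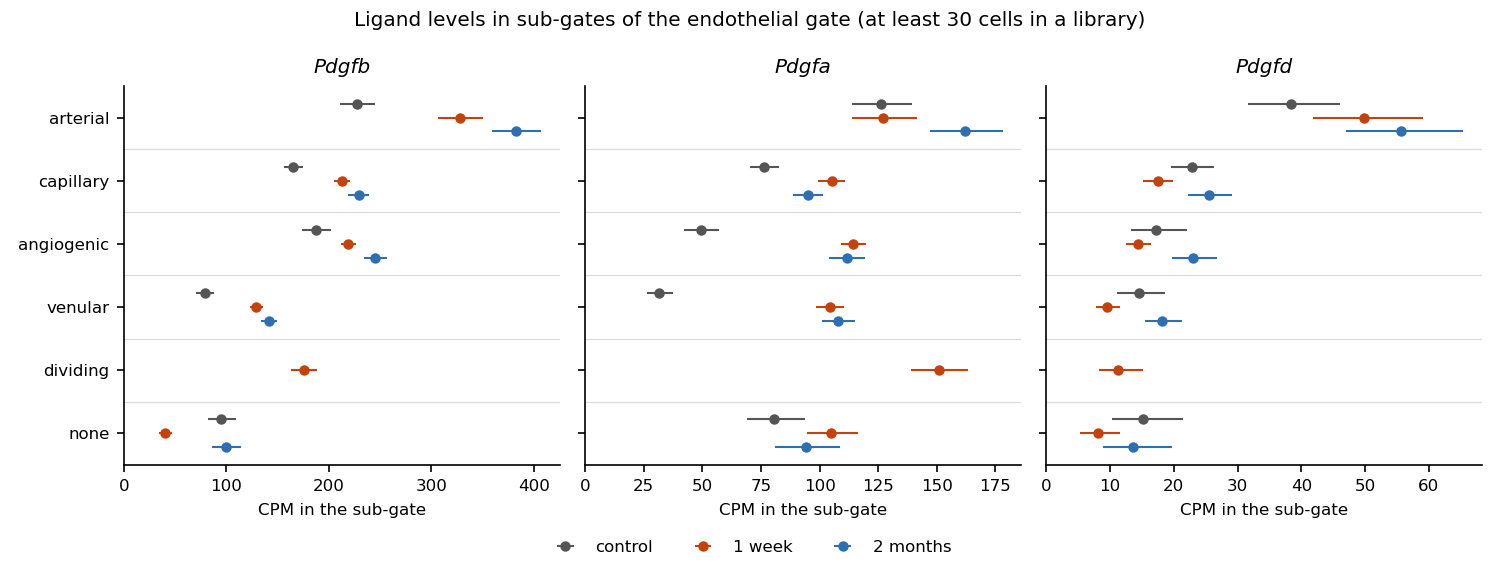
Levels of the ligand genes Pdgfb, Pdgfa and Pdgfd (CPM, horizontal axes) in sub-gates of the endothelial gate with at least 30 cells in a library, as points with 95% intervals for counting error. Arterial cells are highest for Pdgfb (227, 328 and 383 CPM), and venular cells show the widest gap between control and DMM libraries for Pdgfa (31.4 against 104 and 108 CPM).

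Macrophage Pdgfb was 44.6 CPM in the control (40.8 to 48.6), 67.8 CPM at 1 week (64.5 to 71.2) and 70.2 CPM at 2 months (65.5 to 75.1), ratios of 1.52 (1.38 to 1.68) and 1.58 (1.41 to 1.76). Neutrophils had 6.4, 4.4 and 6.8 CPM, below the macrophage level in each library. The 4 neutrophil markers summed to 80.0, 716 and 4440 CPM in the macrophage gate, and their part in the macrophage levels was not tested. In macrophages with Mrc1 or Retnla and no Vsig4 the level was 30.9, 64.4 and 61.2 CPM, and in macrophages with Vsig4 it was 52.2, 62.3 and 79.3 CPM. Cells with at least 50 Cd74 UMIs showed 13.6 CPM in the control, from 10 UMIs, and 77.6 CPM at 1 week, a ratio of 5.71 (3.07 to 12.02). Mural Pdgfb stayed between 16.3 and 20.1 CPM with overlapping intervals. Fibroblast Pdgfb was 1.41, 0.999 and 0.417 CPM, from 75, 88 and 40 UMIs, and its 2-month level was 3.37-fold lower than the control (2.27 to 5.08), a log2 ratio of -1.75 that was -2.54 with every cell weighted equally. The 5 endothelial markers in fibroblasts summed to 17.9, 16.0 and 8.46 CPM and were also lowest at 2 months, and their part in the fibroblast Pdgfb UMIs was not tested.

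Pdgfc, which encodes the C chain (chr3:81036416-81214040, plus), was higher in fibroblasts of both DMM libraries. The fibroblast level was 12.8 CPM in the control (11.9 to 13.8), 35.2 CPM at 1 week (34.0 to 36.5) and 27.3 CPM at 2 months (26.3 to 28.4), ratios of 2.74 (2.52 to 2.98) and 2.13 (1.96 to 2.32). Thinned fibroblasts had a UMI in 3.17%, 8.65% and 6.13%, and all fibroblasts in 11.9%, 32.8% and 23.7%. At 1 week all 7 sub-gates compared had a ratio above 1, from 1.15 in Pi16 and Dpp4 cells (0.920 to 1.43) to 3.71 in lining cells (3.09 to 4.47) and 4.90 in interferon-response cells, where the control had 13 UMIs. The Pi16 and Dpp4 cells had the highest control level among the sub-gates, 23.7 CPM. At 2 months the ratio was 2.61 in lining cells (2.25 to 3.04) and 1.00 in Gdf10, Inmt and Fmo2 cells (0.745 to 1.35). Over the alternative settings the class log2 ratio ranged from 1.20 to 1.48 at 1 week and from 0.89 to 1.10 at 2 months.

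Macrophages went the other way for Pdgfc at 1 week. They had 35.8 CPM in the control (32.4 to 39.4), 24.0 CPM at 1 week (22.1 to 26.1) and 50.3 CPM at 2 months (46.3 to 54.5), which was 1.49-fold lower (1.31 to 1.69) and 1.41-fold higher (1.24 to 1.60) than the control. Macrophages with Vsig4 had 37.0, 56.2 and 61.2 CPM and were 53.7%, 2.44% and 26.4% of the gate. In macrophages with at least 50 Cd74 UMIs, 5.99%, 22.4% and 13.9% of the gate, the level was 24.4, 10.0 and 18.1 CPM. With the control mix of sub-gates the 1-week log2 ratio was 0.26 in place of -0.57, so its direction depended on the makeup of the gate. Mural Pdgfc was 18.1, 19.2 and 35.9 CPM, a 2-month ratio of 1.98 (1.59 to 2.48), and endothelial Pdgfc was 5.44, 10.9 and 9.14 CPM. The endothelial log2 ratio at 1 week, 1.00 as counted, was 1.74 with the stricter gate and -0.14 in thinned cells. The share of all Pdgfc UMIs held by fibroblasts was 49.1%, 65.4% and 65.1%, and by macrophages 28.0%, 11.6% and 14.6%.

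Pdgfd, which encodes the D chain (chr9:6168584-6378850, plus), was lower at 1 week in fibroblasts, endothelium and mural cells. Mural Pdgfd was 20.6 CPM in the control (17.3 to 24.2), 2.96 CPM at 1 week (1.90 to 4.41) and 26.9 CPM at 2 months (23.1 to 31.2), from 142, 24 and 177 UMIs. The 1-week level was 6.94-fold lower than the control (4.48 to 11.2). In smooth muscle cells alone it was 20.9 and 4.72 CPM, 4.42-fold lower (2.72 to 7.57), and in pericytes it rested on 10 and 5 UMIs. A UMI was seen in 5.51%, 0.998% and 7.19% of thinned mural cells and in 0.102%, 0.0520% and 0.115% of thinned macrophages.

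In fibroblasts Pdgfd was 9.38 CPM (8.57 to 10.2), 3.84 CPM (3.44 to 4.27) and 10.9 CPM (10.3 to 11.6), which was 2.44-fold lower at 1 week (2.12 to 2.81) and 1.16-fold higher at 2 months (1.05 to 1.30). The largest sub-gate difference was in Thbs4 and Cilp cells, 12.1 and 3.28 CPM, 3.695-fold lower (2.75 to 4.95). Pi16 and Dpp4 cells had 11.7 and 11.3 CPM, with an interval of the ratio from 0.678 to 1.34, and cells of no sub-gate had 4.75 and 4.92 CPM. With the control mix of sub-gates the class log2 ratio was -0.59 in place of -1.29. Endothelial Pdgfd was 22.2, 15.3 and 24.1 CPM, 1.45-fold lower at 1 week (1.24 to 1.69), and arterial cells had 38.4, 49.9 and 55.6 CPM, so the lower class level did not occur in arterial cells. Endothelium held 46.2% of the Pdgfd UMIs at 1 week against 27.5% in the control and 23.8% at 2 months.

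**Figure D4:**
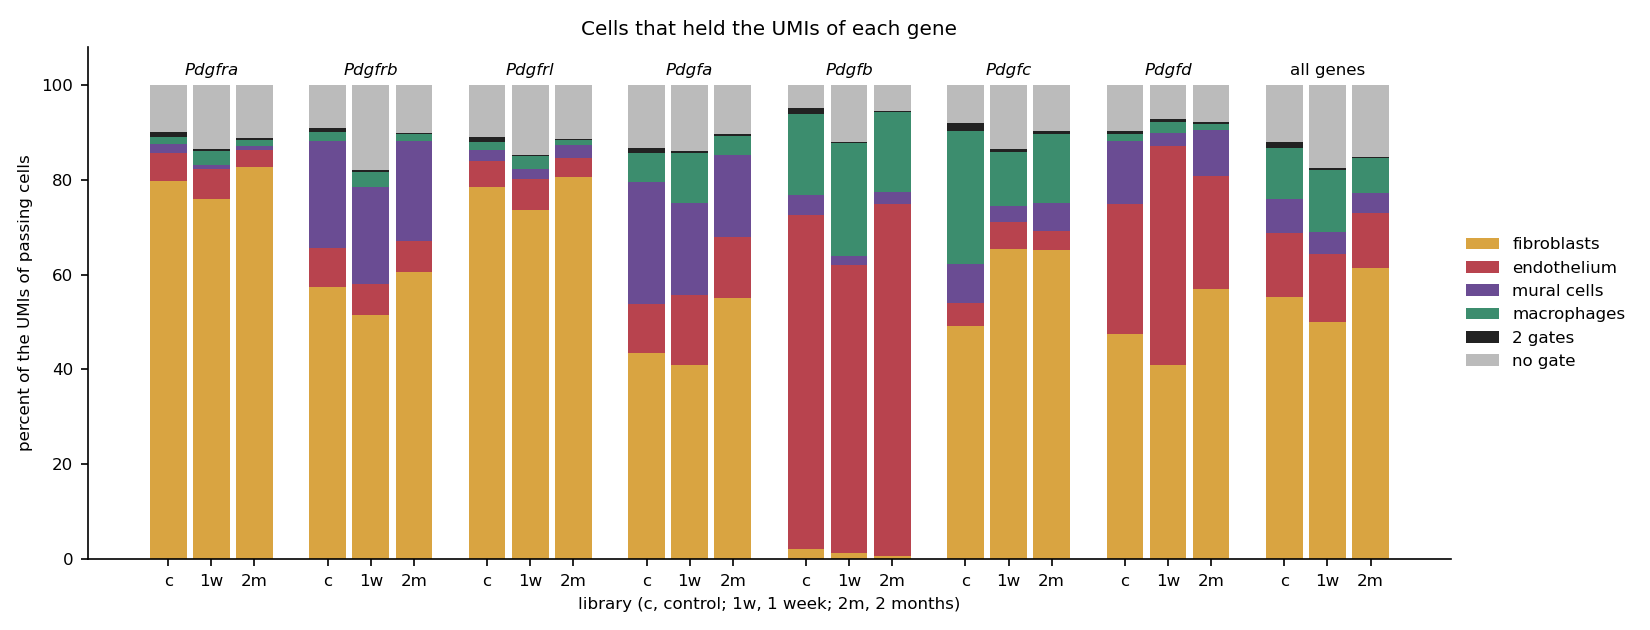
Share of each gene's UMIs (percent of the UMIs of passing cells) held by each cell class, by cells of 2 gates and by cells of no gate, in the control (c), 1-week (1w) and 2-month (2m) libraries, with all genes at the right. Fibroblasts hold 75.9% to 82.7% of Pdgfra UMIs, endothelium 60.8% to 74.1% of Pdgfb UMIs, and the fibroblast share of Pdgfc is 49.1%, 65.4% and 65.1%.

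A member was called when its CPM differed by 2-fold or more and the compared sums held at least 50 UMIs together, and the same call over all genes gives the background. At 1 week 3 of 7 members were called in fibroblasts (Pdgfrl and Pdgfc higher, Pdgfd lower), where 22.5% of all tested genes were called. With the control mix of sub-gates 1 of these 3 was past 2-fold, since the log2 ratios were 1.27 for Pdgfc, 0.90 for Pdgfrl and -0.59 for Pdgfd. In mural cells 4 of 7 were called (Pdgfrb and Pdgfrl higher, Pdgfra and Pdgfd lower) against 23% of genes, in endothelium 1 of 7 (Pdgfrl) against 16.1%, and in macrophages 2 of 6 (Pdgfrb and Pdgfrl) against 18.6%. Macrophage Pdgfd had 46 UMIs at 1 week and in the control and was not counted. At 2 months 2 of 7 were called in fibroblasts (Pdgfc higher, Pdgfb lower) against 10.1% of genes. At that time 0 of 7 were called in endothelium against 6.55%, 0 of 7 in mural cells against 7.26% and 0 of 7 in macrophages against 7.89%. Several members lay just under 2-fold, namely Pdgfc in endothelium at 1 week (1.99-fold, 1.53 to 2.63) and Pdgfc and Pdgfrl in mural cells at 2 months (1.98-fold and 1.97-fold). With 7 genes such counts do not set the family apart from other genes.

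**Figure D5:**
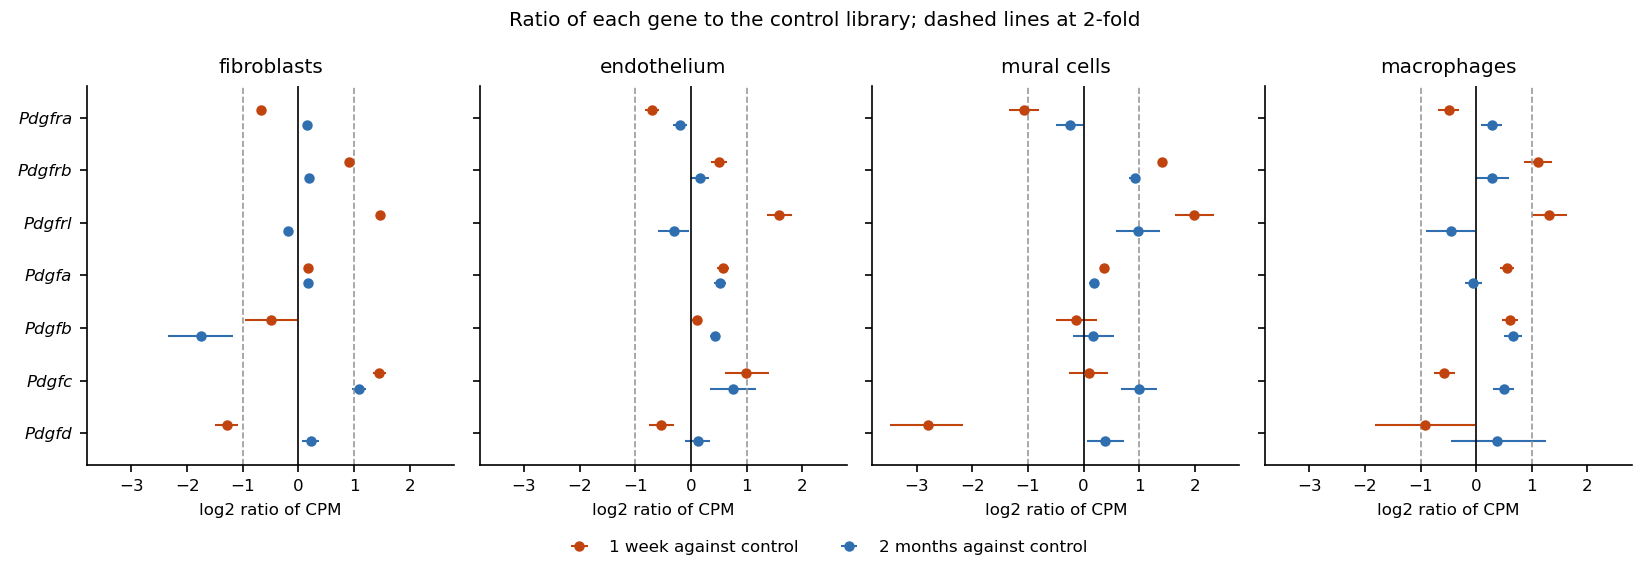
Log2 ratio of the CPM of each PDGF gene to the control library (horizontal axes) in 4 cell classes at 1 week and 2 months, as points with 95% intervals for counting error, with dashed lines at 2-fold. At 1 week Pdgfrl lies to the right of the upper line in all 4 classes. Pdgfd lies to the left of 0 in all 4 at that time. Its macrophage point rests on 24 and 22 UMIs, too few for a call. Most 2-month points lie between the lines.

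Macrophage Pdgfrb, which passed 2-fold at 1 week, lay below the neutrophil value in each library. The intervals overlapped in the control, where neutrophils had 5 UMIs, and at 2 months (15.3 to 20.1 against 16.7 to 23.4 CPM). At 1 week the neutrophil value came from 109 UMIs in 30 of 372 cells. Macrophage Pdgfrb was 14.4, 31.1 and 17.6 CPM, a 1-week ratio of 2.16 (1.82 to 2.57). Neutrophils had 16.1, 80.6 and 19.9 CPM, and the fibroblast ratio to collagen and decorin would give macrophages 9.31, 20.2 and 12.2 CPM. With the control mix of sub-gates the macrophage log2 ratio was 0.35 in place of 1.11, and with the stricter gate 1.72. Endothelial Pdgfrb was 39.0, 55.3 and 43.9 CPM and fell to 9.7, 17.6 and 13.0 CPM under the stricter gate. The part of fibroblast and mural RNA in these levels was not tested.

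Among gates for other cell types, which could overlap the 4 classes, 3 gave levels of note. Osteoclasts of the 1-week library, 111 cells with all 4 osteoclast markers at a sum of 11659 CPM, had 92.3 CPM of Pdgfb (81.1 to 105) and a UMI in 31.5% of thinned cells (23.0 to 41.0). In the control and at 2 months the same gate held 30 and 64 cells, of which 27 and 56 lay in the fibroblast gate, and was not read as osteoclasts. Schwann cells of the 2-month library, 42 cells with all 4 Schwann markers, had 273 CPM of Pdgfa (232 to 319) and 148 CPM of Pdgfc (118 to 183), with 14 of them in the fibroblast gate and the 5 fibroblast markers at 4227 CPM. Few cells carried these levels, since the 157 Pdgfa UMIs lay in 15 cells and the 85 Pdgfc UMIs in 7. The summed Pdgfc level was above that of each of the 4 classes in that library, but the share of cells with a UMI, 16.7% (6.97 to 31.4), was below the 41.6% of macrophages, and after thinning it was 8.11% (1.70 to 21.9). The chondrocyte gate at 1 week held 94 cells, of which 89 also lay in the fibroblast gate. Its 4 chondrocyte markers summed to 11129 CPM and the 5 fibroblast markers to 24824 CPM, so these cells were not set apart from fibroblasts. They had 285 CPM of Pdgfrl (257 to 316), where the whole fibroblast gate, which included most of them, had 152 CPM. No Pdgfb UMI was seen in them, with an upper limit of 2.85 CPM.

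Genes with the most similar pattern were ranked by Pearson's r of log2(CPM + 1) over the 12 combinations of class and library, among 8448 genes. These points share libraries, depth and stray RNA, and r is a description. Pdgfra was most like Abi3bp (0.990), Lpar1 (0.988) and Htra3 (0.984), each highest in fibroblasts. Pdgfrb was most like Mmp11 (0.984), Dzip1l (0.980) and Fads3 (0.976), each highest in mural cells at 1 week. Pdgfrl was most like Kdelr3 (0.976), Gpx7 (0.975) and Srpx2 (0.972), each highest in fibroblasts at 1 week. For Pdgfa the genes were Nr2f1 (0.976), Heyl (0.968) and Pde3a (0.966), and for Pdgfb Rasa4 (0.978), Cd93 (0.977) and F11r (0.977). For Pdgfd they were Cdc37l1 (0.952), Fam13c (0.951) and Pitpnm2 (0.947), and for Pdgfc, which had the lowest values, Rnf150 (0.8996), Lamtor2 (0.893) and Sumf1 (0.882).

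Genes around the pathway were read from 3 lists. In fibroblasts at 1 week, the list of ligand processing and binding had 2 of 8 measured genes 2-fold higher and 1 lower, with a median log2 ratio of 0.23 against 0.02 over all genes, of which 12.02% were 2-fold higher and 10.5% lower. Plat, the protease tPA that activates the C chain, was 79.1 against 33.4 CPM (ratio 2.37, 2.25 to 2.50), and Pcsk5, a proprotein convertase, 36.3 against 14.8 CPM (2.46, 2.27 to 2.66). Plau, the protease uPA that can activate the D chain, was 13.6 against 32.1 CPM (2.36-fold lower, 2.19 to 2.54), and the endocytic receptor Lrp1, which binds the beta receptor, was 395 against 689.5 CPM (1.75-fold lower, 1.72 to 1.77). In fibroblasts at 1 week the level of Plat thus differed in the same direction as that of Pdgfc, and Plau in the same direction as Pdgfd. At 2 months none of the 8 was past 2-fold, with Plat at 46.0 CPM and Plau at 18.3 CPM. Plat and Pdgfc were then both higher than in the control, whereas Plau was lower and Pdgfd 1.16-fold higher.

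In mural cells 4 of the 8 measured genes of that list were 2-fold higher at 1 week and none lower, with a median of 0.83 against 0.01 over all genes, of which 11.6% were higher and 11.5% lower. They were Plat (16.5 to 99.2 CPM, ratio 6.01, 4.93 to 7.38), Pcsk5, Sparc and Nrp1, the last 2 named after their values were seen. Mural Pdgfc had a 1-week ratio of 1.06 (0.835 to 1.36), so the higher level of Plat was not matched by Pdgfc there. At 2 months 3 of 8 were 2-fold higher against 4.65% of all genes, with Plat at 42.4 CPM.

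Of the 22 genes of the signal relay list, 1 was 2-fold higher and 3 lower in fibroblasts at 1 week (median -0.02 against 0.02; 12.02% and 10.5% of all genes), and none passed 2-fold at 2 months. The phosphatase gene Ptpn2 was 42.9 against 26.5 CPM (1.62, 1.52 to 1.72). The phosphoinositide 3-kinase subunit Pik3r1 was 36.5 against 90.9 CPM (2.49-fold lower, 2.38 to 2.61) and the kinase gene Fyn 48.0 against 102.5 CPM (2.14-fold lower, 2.05 to 2.23). In mural cells 4 of 22 were higher and none lower (median 0.35 against 0.01), while 11.6% and 11.5% of all genes were.

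Growth-factor response genes mostly had lower levels in fibroblasts at 1 week, with 1 of 19 past 2-fold higher, 2 lower and 3 of 19 above a ratio of 1 (median -0.43 against 0.02). Fos was 1520.5 against 3473 CPM (2.28-fold lower) and Myc 43.8 against 100.5 CPM (2.30-fold lower), whereas Dusp6, a feedback phosphatase of the ERK pathway, was 36.3 against 16.1 CPM (2.25, 2.09 to 2.43) and Egr3 31.7 against 25.6 CPM. At 2 months Fos was 2012 CPM, Myc 62.7 CPM and Dusp6 25.9 CPM, and none of the 19 genes passed 2-fold (median -0.18). In mural cells at 1 week 5 of 18 were higher and 1 lower (median 0.15), in endothelium 2 of 19 and 6 (median -0.31), and in macrophages 1 of 18 and 5 (median -0.42). In endothelium the processing list had 2 of 9 higher and 1 lower (median -0.50) and the relay list 0 of 22 (median 0.17), and in macrophages 2 of 8 and 2 (median -0.11) and 2 of 22 and 1 (median -0.11). Over all genes 11.6% were higher and 11.5% lower in mural cells (median 0.01), 7.70% and 8.38% in endothelium (median 0.02) and 8.66% and 9.96% in macrophages (median -0.06). Immediate-early genes also respond to tissue digestion, and the part of handling in their levels was not tested.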

How the data were processed

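The authors deposited 10x Genomics matrices of raw UMI counts for each gene and barcode. The headers of these files name Cell Ranger 5.0.0 (control, 1 week) and 5.0.1 (2 months), whereas the submitters' processing notes give 6.0.1 and build mm10. The libraries held 96782789, 179561680 and 159333121 UMI counts. Of 32285 genes, 32158 were found in GENCODE vM21 of GRCm38, all 7 members among them.

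UMI counts of the cells of a gate were summed per library and given as CPM, with exact Poisson intervals, Clopper-Pearson intervals for shares and conditional binomial intervals for ratios (95% level, counting error only). With 1 library per group there were no replicates and no test. A ratio was called at 2-fold among genes with at least 50 UMIs in both sums together. Cells in several gates were kept in each, and doublets were kept in the main values. Scrublet in scanpy 1.11.5 called 313, 507 and 460 cells, which 1 alternative left out. Fibroblast and mural gates ask for no Cdh5 or Ptprc UMI, so deep cells pass them less easily.

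The 7 members were always named. Like genes were the 3 highest by Pearson's r, with predicted, ribosomal, mitochondrial, haemoglobin, sex-linked and gate genes left out, and at most 4 genes per list were named, those of highest and lowest fibroblast ratio at 1 week with at least 20 CPM. The values of 1 gene that this rule names are not reported here. The members, gates, lists and rules were chosen with earlier results of these data known. 14 alternatives were planned (filter, doublets, gates, scaling with edgeR 4.0.16 TMM in R 4.3.3 or median-of-ratios, cell weight, thinning to 3000 UMIs, call limits, dividing cells, shared barcodes, sub-gate mix). Intervals and calls were tested on simulated data. Python 3.11.15, numpy 2.4.6, scipy 1.17.1, pandas 2.3.3 and matplotlib 3.10.9 were used.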

Additional observations from a re-analysis of the deposited data

How the results depend on the processing

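No paired analysis was possible because each group was 1 library. No called ratio changed direction under any of the alternatives run. On the main values the 2-fold call took in 16.1% to 23% of all genes at 1 week. At 2 months it took in 6.55% to 10.1%. The same share is not given here for the other settings, so the counts below have no background beside them. The number of members called depended on the limit. With a 1.5-fold call it was 5 of 7 in fibroblasts at 1 week (3 at 2-fold), 3 and 1 in endothelium at 1 week and 2 months (1 and 0), 3 in mural cells at 2 months (0), and 3 and 1 in macrophages (2 and 0). Thinning to 3000 UMIs gave 0 in fibroblasts at 2 months in place of 2, 2 in mural cells at 1 week in place of 4 and 0 in macrophages at 1 week in place of 2. Removing Scrublet doublets gave 0 in macrophages at 1 week in place of 2, 1 each in mural cells and macrophages at 2 months, and 3 in mural cells at 1 week. Stricter gates gave 1 in fibroblasts, endothelium, mural cells and macrophages at 2 months and, at 1 week, 2 in endothelium, 3 in mural cells without Pdgfra and 4 in fibroblasts, where Pdgfra was added. The filter of 1000 genes and 5% mitochondrial UMIs gave 2 in endothelium at 1 week, 1 in endothelium and 2 in mural cells at 2 months. Removing cells of 2 gates or another type, or shared barcodes, gave 2 in endothelium at 1 week and 1 in mural cells at 2 months. Median-of-ratios scaling gave 2 in endothelium at 1 week. Without dividing cells the count was 1 in mural cells at 2 months and 1 in macrophages at 1 week. With every cell weighted equally it was 1 in fibroblasts and 1 in mural cells at 2 months and 4 and 3 at 1 week, and a floor of 200 UMIs gave 1 in fibroblasts at 2 months and 3 in mural cells at 1 week. The control mix of sub-gates was planned with earlier results of these data known, so it is counted as chosen after seeing the data. At 1 week it gave 1, 2, 3 and 1 in fibroblasts, endothelium, mural cells and macrophages in place of 3, 1, 4 and 2. At 2 months it gave 1 in fibroblasts in place of 2. The cause of these differences was not tested. Among 56 log2 ratios per alternative, 56 stayed inside their counting interval without shared barcodes, 55 with either scaling, 33 with stricter gates and 30 with the control mix of sub-gates, and the sign differed for 0, 0, 4 and 6 of them. Fibroblast Pdgfb and macrophage Pdgfd rested on few UMIs, which limits what these libraries can show of them.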
